A study of Homo sapiens with 48 samples.

Results

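The genes that break down heme and store or move the iron it releases were followed through treatment with carfilzomib, an irreversible inhibitor of the proteasome. They were chosen by name: 10 symbols (HMOX1, HMOX2, BLVRA, BLVRB, FTL, FTH1, SLC40A1, TFRC, BACH1 and NCOA4) were looked up among the 33892 rows of a matrix of raw read counts, and all 10 have a row. RNA came from 8 established human cancer cell lines grown in dishes. By their labels, the tumours of origin are colon cancer (RKO, DLD-1), lung cancer (H-23, H-1299), pancreatic cancer (PANC-1, CAPAN-2) and multiple myeloma (H-929, RPMI). Each line received carfilzomib for 24 h, at a dose set to the IC50 of its proteasome activity, or the solvent DMSO. The 3 biological replicates of each treatment give 16 groups and 48 libraries. The doses differ between lines and their values were not used here, so a difference between lines may be one of dose as well as of cell line. Each line is 1 culture lineage, and the replicates measure the spread between cultures of that line.

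Heme oxygenase opens the heme ring and releases iron, carbon monoxide and biliverdin, which biliverdin reductase turns into bilirubin. Free iron is caged in ferritin, a shell of light and heavy chains, and ferritin is sent to the lysosome by the receptor NCOA4. Iron enters cells through the transferrin receptor TFRC and leaves through ferroportin, the product of SLC40A1. Transcription of HMOX1 and of the ferritin genes is repressed by BACH1, a heme-sensing factor that dimerises with small MAF proteins, and is activated at the same DNA elements by NRF2. Iron also acts on the RNA: iron regulatory proteins bind a hairpin, the iron-responsive element, which blocks translation when it lies in the 5′ untranslated region (UTR) and stabilises the transcript when it lies in the 3′ UTR of TFRC.

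The iron-responsive elements are shown because their place in the transcript sets FTL and SLC40A1 apart from TFRC. Their part in the changes of these transcripts was not tested. The 6 sites below were read from GENCODE 29 transcripts on hg38 as a C, 5 bases, the loop CAGTGN and 5 bases that pair with the first 5, and 291 of 19702 protein-coding genes (1.477%) have a transcript with such a match. Among the members these are FTL, FTH1, SLC40A1 and TFRC, and the site of FTH1 is not printed here. Capitals mark the hairpin loop with the base after it. FTL has its site in the 5′ UTR at chr19:48965335-48965364 on the plus strand, and SLC40A1 in the 5′ UTR at chr2:189580660-189580689 on the minus strand. TFRC has 4 in the 3′ UTR on the minus strand, the first at chr3:196050978-196051007 and the last at chr3:196050462-196050491.
FTL: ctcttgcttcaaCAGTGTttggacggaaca
SLC40A1: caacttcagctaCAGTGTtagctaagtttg
TFRC site 1: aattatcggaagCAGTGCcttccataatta
TFRC site 2: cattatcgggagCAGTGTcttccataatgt
TFRC site 3: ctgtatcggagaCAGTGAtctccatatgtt
TFRC site 4: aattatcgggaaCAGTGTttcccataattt
The loop CAGTG is common to all 6, and the base after it is T in 4 of them. A match is a description of the letters and not a measured binding site.

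Promoter windows from RefSeq (GRCh38.p14, 250 bases before to 50 after the start) were held for 8 of the 10 members; HMOX1 and FTH1 were not among them. The core TGAGTCA, searched on both strands, is shared by AP-1 sites and by the elements that BACH1 and NRF2 bind with small MAF proteins. It lay in 1 of the 12 windows of the members, which is 1 of 3 windows of BACH1, and in 1738 of 35116 windows of all genes (4.949%). The BACH1 window is printed because BACH1 encodes the repressor itself and its transcript rose in 6 lines (below). Whether the core has a part in that rise was not tested, and elements outside the windows were not searched. These are the 250 bases before the start of 1 RefSeq transcript, chr21:29298672-29298921 on the plus strand, with the core in capitals 48 bases before that start. The window lies inside the longer gene span that GENCODE 29 gives.
BACH1: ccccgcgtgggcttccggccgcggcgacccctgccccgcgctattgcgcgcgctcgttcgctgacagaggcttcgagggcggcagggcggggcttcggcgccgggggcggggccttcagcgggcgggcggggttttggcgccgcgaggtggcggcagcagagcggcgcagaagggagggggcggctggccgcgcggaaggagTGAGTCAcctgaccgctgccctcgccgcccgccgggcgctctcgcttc
The core of the NRF2 element, TGACNNNGC, lay in 13.35% of all windows and, among the members, in NCOA4.

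Library totals ran from 9.12 M (mega) to 64.4 M counts, and no pair of replicates agreed within counting noise (the lowest chi-square was 3.33 per degree of freedom over 48 pairs). Depth went with treatment in H-929 (14.6 to 18.9 M under DMSO, 9.12 to 9.93 M under carfilzomib). It did so too in H-1299 (38.5 to 64.4 M and 24.0 to 35.4 M). In the other lines the totals of the treatments overlapped. The lines were checked against marker genes. Plasma cell markers summed to 4083 to 4269 counts per 1 M counts (CPM) in H-929 and 1156 to 1295 in RPMI under DMSO, against at most 421 in the carcinoma lines. Epithelial markers were low in RKO (128 to 152 CPM, KRT19 at 0), and CDH1 was at 0 in H-1299 under DMSO. The myeloma line RPMI had more of the epithelial markers than RKO under DMSO, 221 to 227 CPM, with EPCAM at 118 CPM and KRT18 at 103 CPM. H-929 had 44.7 to 58.9 CPM of them. Of 3 lung markers, 2 had a row, SFTPB and SFTPC, and NKX2-1 had none under that name. The 2 summed to at most 1.80 CPM under DMSO in H-23 and H-1299, so those labels have no support from these markers. Colon markers under DMSO summed to 21.1 to 22.7 CPM in RKO, against 248 to 268 in DLD-1. Pancreatic duct markers under DMSO summed to 66.2 to 73.7 CPM in PANC-1, below DLD-1 (217 to 254), and to 1466 to 1564 in CAPAN-2. Markers of macrophages, cells that specialise in heme breakdown, summed to at most 15.6 CPM in any library. Values below are CPM scaled by TMM factors within each line unless stated otherwise. In bulk RNA, fewer cells with a transcript and less transcript per cell cannot be told apart.

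BLVRB rose in all 8 lines, HMOX1 and FTL in 7, BACH1 in 6 and FTH1 in 5, and none of these 5 genes fell in any line. TFRC fell in 5 lines and rose in 1, and BLVRA rose in 3 and fell in 1. A gene was called when edgeR's quasi-likelihood test gave a Benjamini-Hochberg adjusted p under 0.05 over all genes tested in that line. Among the genes with a test in each of the 8 lines, 1.33% were higher in at least 7 and 0.120% in all 8, 1.70% were called lower in at least 7, while 47.8% were called in both directions in different lines, as TFRC, BLVRA and NCOA4 were.

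The calls have to be read against how much of the transcriptome moved in each line. In RKO 2 of 8 tested members were called higher, HMOX1 and BLVRB, and none lower, where 8.90% of all genes were called (3.62% higher and 5.28% lower). DLD-1 had 3 of 9 higher and 1 lower (23% of all genes called, 10.9% higher and 12.1% lower). H-23 had 5 of 9 higher and none lower (33.9% called, 17.7% higher and 16.2% lower). PANC-1 had 7 higher and 1 lower (38.7% called, 20.5% higher and 18.2% lower). The remaining lines changed more broadly. H-1299 had 7 of 9 higher and none lower (61.2% of all genes called, 29.8% higher and 31.3% lower), and CAPAN-2 had 7 higher and 2 lower (52.5% called, 25.7% higher and 26.7% lower). H-929 had 5 higher and 2 lower (52.6% called, 26.4% higher and 26.2% lower), and RPMI had 5 higher and 4 lower (63.4% called, 31.3% higher and 32.2% lower). The median log2 fold change of the tested members was lowest in RKO, at 0.13, and highest in RPMI, at 0.93, while the median of all genes lay between -0.02 and 0.03 in every line. Where it is said below that the treatments did not overlap in a line, the share of all genes of which this holds is 28.2% in RKO, 39.9% in DLD-1, 45.7% in H-23 and 66.2% in H-1299. It is 49.6% in PANC-1, 59.3% in CAPAN-2, 59.4% in H-929 and 68.2% in RPMI.

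**Figure D1:**
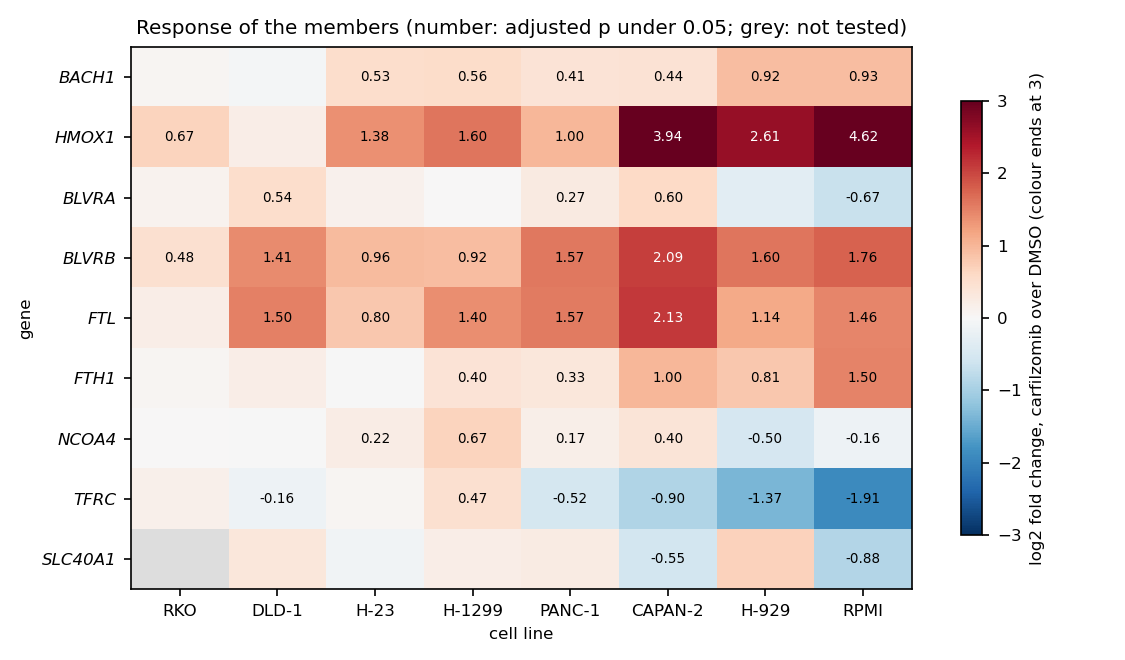
Log2 fold change of each member (rows) in each cell line (columns), carfilzomib over DMSO, from edgeR fits of 6 libraries per line. HMOX2 was tested in no line and is not drawn. Numbers mark adjusted p under 0.05 and grey marks SLC40A1 in RKO, which was not tested. BLVRB is called higher in all 8 lines, and TFRC is called lower in 5 and higher in H-1299.

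BACH1 (ENSG00000156273, hg38 chr21:29194071-29630751, plus strand), the repressor of HMOX1 and ferritin transcription, rose by up to 0.93 on the log2 scale. In RPMI the DMSO libraries had 173, 190 and 179 CPM and the carfilzomib libraries 335, 341 and 357 CPM. In H-929 they had 62.7, 59.3 and 52.2 CPM against 110, 114 and 108 CPM. The groups did not overlap in either myeloma line, and the fitted folds were 1.91 (log2 0.93 ± 0.0542 SE, adjusted p = 5.03e-09 by edgeR, n = 3) and 1.90 (0.92 ± 0.0925, adjusted p = 1.55e-06). H-23, H-1299, PANC-1 and CAPAN-2 gave smaller rises, between 0.41 and 0.56. RKO (log2 fold change 0.05, adjusted p = 0.597 by edgeR) and DLD-1 (-0.06, adjusted p = 0.455) were not called. The annotated gene overlaps several others, GRIK1 on the opposite strand among them. The libraries were stranded, but whether counting used the strand is not given in the sources used here, so reads of the overlapping genes may be shared.

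HMOX1 (ENSG00000100292, chr22:35380361-35394214, plus strand) encodes the inducible heme oxygenase and had the largest response of the members in 6 of the 8 lines. In RPMI it went from 45.1, 95.9 and 112 CPM under DMSO to 1946, 2402 and 1937 CPM. This is a fitted fold of 24.5 (log2 4.62 ± 0.243 SE, adjusted p = 1.94e-09 by edgeR, n = 3), and the DMSO libraries themselves spread widely, replicate 1 being the low one. In CAPAN-2, the line with the least HMOX1 at the start, it went from 3.08, 3.65 and 2.67 CPM to 51.6, 47.8 and 42.8 CPM, a fold of 15.3 (log2 3.94 ± 0.108). The third largest rise was in H-929, from 18.7, 16.6 and 18.4 CPM to 117, 95.9 and 114 CPM, a fold of 6.09 (log2 2.61 ± 0.111). The groups were far apart in all 3.

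The other lines gave HMOX1 rises of a smaller order. H-1299 went from 15.3, 16.5 and 17.2 CPM to 46.95, 52.6 and 49.1 CPM, and H-23 from 49.2, 51.8 and 49.4 CPM to 121, 138 and 131 CPM. PANC-1 started highest with RPMI, at 107, 100 and 98.5 CPM, and reached 211, 195 and 204 CPM, a fold of 1.99. RKO rose from 32.4, 27.8 and 27.9 CPM to 42.1, 48.7 and 48.8 CPM (log2 0.67 ± 0.0881, adjusted p = 0.000447 by edgeR, n = 3), with no overlap of the groups. DLD-1 was the exception: 12.1, 11.6 and 9.04 CPM under DMSO and 12.9, 11.3 and 13.5 CPM under the drug overlapped, and HMOX1 was not called there (log2 0.20 ± 0.121, adjusted p = 0.282 by edgeR, n = 3). The response of HMOX1 differed between the 8 lines (F = 92.7, adjusted p = 4.99e-22 by edgeR), but no pair of lines was tested separately.

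The constitutive heme oxygenase HMOX2 could not be read. Its row carries the identifier ENSG00000277424, which the reference table does not pair with HMOX2, and held 0 to 2 counts per library, 9 in all. A second row with the same identifier, named HMOX2-2, held 1 to 252 counts with a median of 12. The HMOX2 row was not tested in any line, and neither row is used here as a level of HMOX2.

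**Figure D2:**
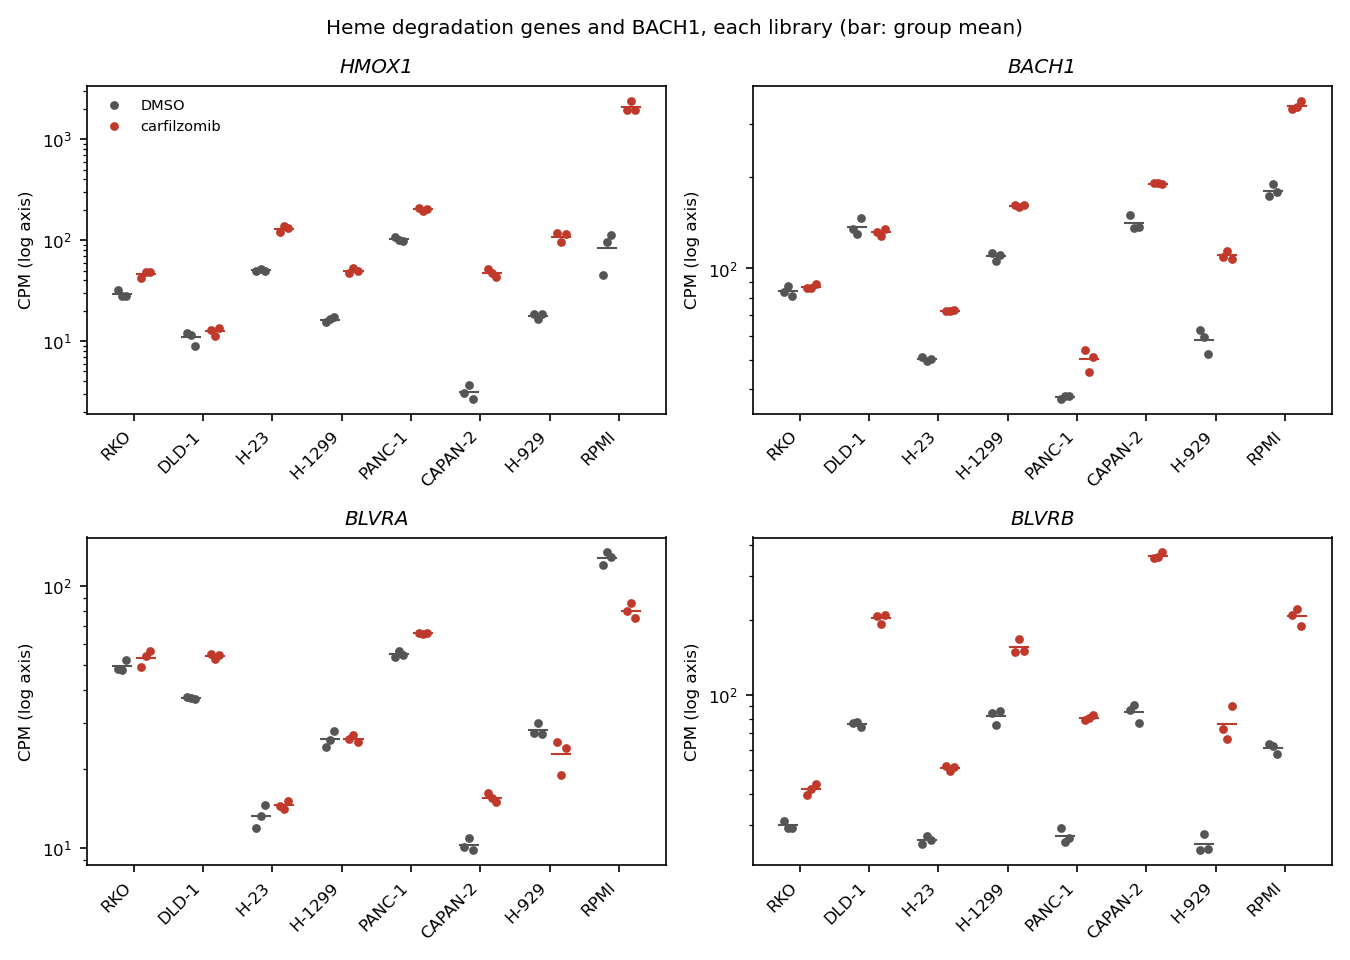
CPM of HMOX1, BACH1, BLVRA and BLVRB in each of 48 libraries by cell line, on log axes (grey, DMSO; red, carfilzomib; horizontal bars, group means of 3). HMOX1 in RPMI reaches 1937 to 2402 CPM, while the DLD-1 groups overlap, and the BLVRB groups stay apart in every line.

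The biliverdin reductases parted from each other. BLVRB (ENSG00000090013, chr19:40447765-40465840, minus strand), which reduces biliverdin IXβ and flavins, rose in every line, whereas BLVRA (ENSG00000106605, chr7:43758680-43807342, plus strand), the main biliverdin IXα reductase, rose in 3 and fell in 1. BLVRB was highest after treatment in CAPAN-2, from 87.0, 91.1 and 77.1 CPM to 353, 357 and 372 CPM, a fold of 4.24 (log2 2.09 ± 0.0663 SE, adjusted p = 2.08e-11 by edgeR, n = 3). In RPMI it went from 63.2, 61.9 and 57.8 CPM to 209, 220 and 189 CPM, a fold of 3.39. The response held in DLD-1, where HMOX1 was not called: 77.1, 77.4 and 73.9 CPM became 206, 191 and 209 CPM (log2 1.41 ± 0.0496). In RKO, the line with the fewest calls, BLVRB went from 31.2, 29.1 and 29.2 CPM to 39.6, 41.7 and 43.7 CPM (log2 0.48 ± 0.0752, adjusted p = 0.00157 by edgeR, n = 3). In none of the 8 lines did the BLVRB groups overlap.

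BLVRA moved less. It rose in CAPAN-2 (log2 0.60), DLD-1 (0.54) and PANC-1 (0.27). In DLD-1 the libraries went from 37.6, 37.4 and 37.1 CPM to 55.2, 52.8 and 54.6 CPM. In RPMI, the line with the most BLVRA under DMSO, it fell from 120, 134 and 129 CPM to 79.9, 85.9 and 75.5 CPM (log2 -0.67 ± 0.062, adjusted p = 5.07e-07 by edgeR, n = 3). The same direction was not called in H-929 (log2 -0.31, adjusted p = 0.0735), where it passed when carfilzomib replicate 1 was left out (-0.42, adjusted p = 0.0305), without the filter on low counts (-0.39, adjusted p = 0.0256) and with all libraries in 1 fit (-0.47, adjusted p = 1.55e-05). RPMI thus had BLVRB up and BLVRA down in the same libraries.

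FTL (ENSG00000087086, chr19:48965301-48966878, plus strand), the ferritin light chain, was the most abundant member per kilobase in every line under DMSO. In RPMI it went from 3664, 3867 and 3615 CPM to 10258, 10564 and 9923 CPM, a fold of 2.76 (log2 1.46 ± 0.0480 SE, adjusted p = 3.27e-11 by edgeR, n = 3). CAPAN-2 gave the largest fold, 4.38, from 756, 719 and 547 CPM to 2783, 2971 and 3096 CPM. PANC-1 went from 912, 912 and 879 CPM to 2765, 2572 and 2665 CPM.

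FTL also rose in DLD-1, where HMOX1 and FTH1 were not called. DLD-1 went from 556, 565 and 522 CPM to 1611, 1329 and 1716 CPM, a fold of 2.83. H-1299 rose 2.64-fold, H-929 2.20-fold and H-23 1.74-fold. RKO missed the threshold, with 903, 1061 and 1032 CPM against 1074, 1169 and 1193 CPM (log2 0.20, adjusted p = 0.0563 by edgeR, n = 3). The RKO groups did not overlap, and the call appeared without DMSO replicate 2 (0.24, adjusted p = 0.0343) or carfilzomib replicate 1 (0.24, adjusted p = 0.0376). It also appeared with library totals (adjusted p = 0.0222), a mean of at least 50 counts (0.0440), no filter (0.0107) and the replicate number as a block (0.00633). The 9 rows of FTL pseudogenes together held 0.408% to 1.04% of the FTL counts, so adding them moves the FTL values little. How reads that match several sites were counted is not given, so reads lost in that way cannot be seen.

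FTH1 (ENSG00000167996, chr11:61959718-61967660, minus strand), the heavy chain that carries the ferroxidase activity of ferritin, responded in fewer lines than FTL. RPMI went from 216, 236 and 243 CPM to 717, 584 and 661 CPM, a fold of 2.82 (log2 1.496 ± 0.0740, adjusted p = 1.09e-09 by edgeR, n = 3). CAPAN-2 went from 118, 123 and 102 CPM to 223, 206 and 253 CPM (log2 1.00), and H-929 from 95.4, 97.2 and 108 CPM to 160, 176 and 193 CPM (0.81). Smaller rises were called in H-1299 (0.40) and PANC-1 (0.33), and in RKO, DLD-1 and H-23 the groups overlapped. In DLD-1 the values were 325, 291 and 251 CPM against 287, 320 and 390 CPM, in the same libraries in which FTL rose 2.83-fold. FTH1 is less certain than FTL: 21 pseudogene rows held 3.29% to 20.6% of its counts, and BEST1 overlaps it on the opposite strand. Adding the pseudogene rows changed the ratio of group means from 2.82 to 2.80 in RPMI, from 1.99 to 1.95 in CAPAN-2 and from 1.32 to 1.35 in H-1299. The limit on reads that match several sites, given for FTL, holds for FTH1 too.

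**Figure D3:**
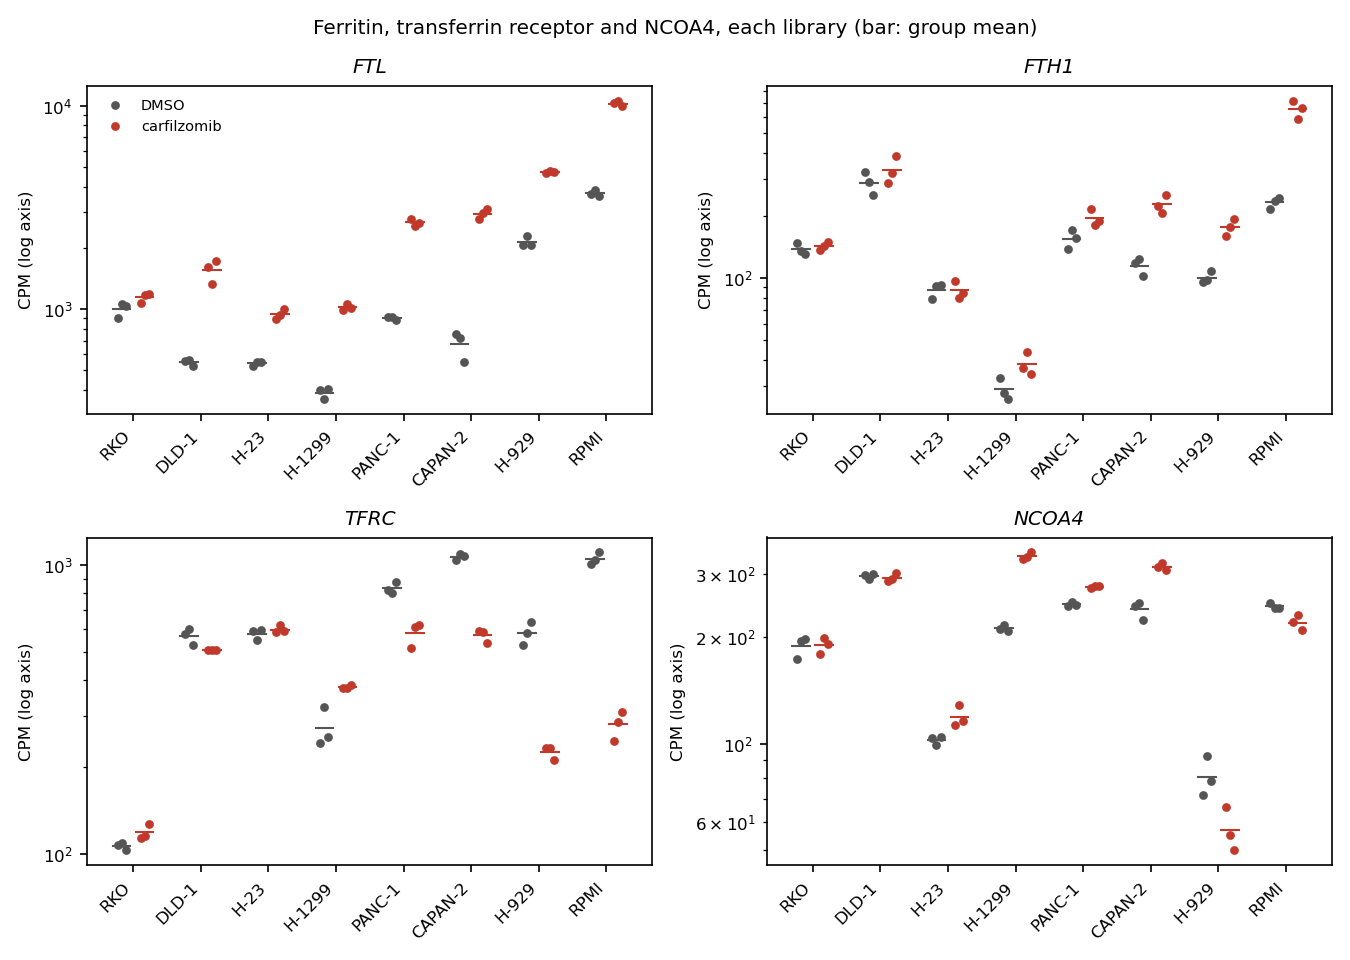
CPM of FTL, FTH1, TFRC and NCOA4 in each of 48 libraries by cell line, on log axes (grey, DMSO; red, carfilzomib; horizontal bars, group means of 3). FTL under carfilzomib lies above DMSO in all 8 lines, and TFRC in RPMI drops from 1013 to 1109 CPM to 246 to 309 CPM.

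The ratio of light to heavy chain transcripts, as counts per kilobase of exon, moved towards the light chain in 6 lines. In DLD-1 it went from 3.52 ± 0.344 (SD, n = 3) to 8.70 ± 1.44, in H-1299 from 24.95 ± 3.29 to 49.7 ± 4.82 and in PANC-1 from 10.8 ± 1.22 to 25.4 ± 1.36. CAPAN-2 went from 10.8 ± 0.956 to 24.0 ± 2.18, H-23 from 11.4 ± 0.633 to 20.1 ± 2.71 and H-929 from 39.5 ± 4.09 to 49.5 ± 4.38. The groups did not overlap in these 6 lines. In RPMI both chains rose alike, and the ratio overlapped at 29.6 ± 2.00 and 29.1 ± 3.70. RKO also overlapped, at 13.5 ± 1.90 and 14.8 ± 0.296. These ratios compare transcripts and say nothing of the protein shell, and the uncertainty of FTH1 applies to them.

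**Figure D4:**
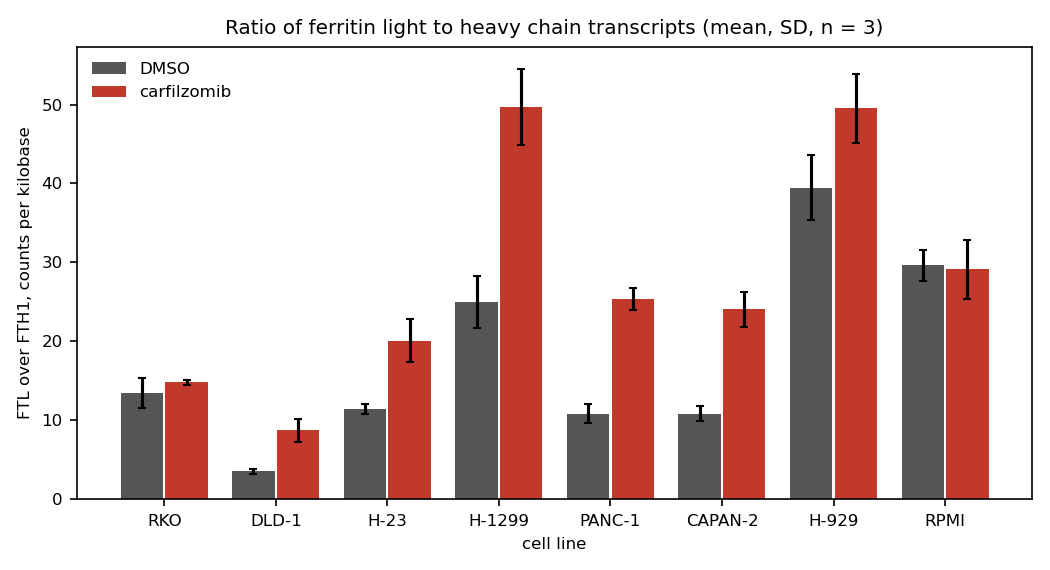
Ratio of FTL to FTH1 transcripts, as counts per kilobase of exon, by cell line (grey, DMSO; red, carfilzomib; bars are means and error bars SD of 3 libraries). The ratio rises in DLD-1 from 3.52 to 8.70 and stays at 29.6 and 29.1 in RPMI.

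TFRC (ENSG00000072274, chr3:196027183-196082189, minus strand) carries transferrin-bound iron into the cell. It fell while FTL and FTH1 rose in PANC-1, CAPAN-2, H-929 and RPMI, and all 3 rose in H-1299. In RPMI it fell from 1013, 1045 and 1109 CPM to 246, 286 and 309 CPM, 3.76-fold lower (log2 -1.91 ± 0.0761 SE, adjusted p = 1.58e-10 by edgeR, n = 3). In H-929 it fell from 527, 584 and 634 CPM to 233, 233 and 210 CPM, 2.58-fold lower (log2 -1.37 ± 0.083). In CAPAN-2 it fell from 1040, 1092 and 1073 CPM to 589, 587 and 537 CPM, 1.87-fold lower. These 3 lines were also those with the largest HMOX1 and FTH1 rises. Plasma cell markers moved with TFRC in the myeloma lines, from 4083 to 4269 CPM down to 2268 to 2422 CPM in H-929, and from 1156 to 1295 CPM down to 561 to 645 CPM in RPMI; their part in the result was not tested.

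PANC-1 gave a smaller fall of TFRC, from 821, 800 and 877 CPM to 518, 611 and 618 CPM (log2 -0.52). H-1299 went the other way, from 242, 323 and 253 CPM to 374, 374 and 386 CPM (log2 0.47 ± 0.0837, adjusted p = 0.000299 by edgeR, n = 3), with no overlap. In the same H-1299 libraries the epithelial markers summed to 970 to 1065 CPM under DMSO and 360 to 400 CPM under the drug, and their part in the result was not tested. The DLD-1 call (log2 -0.16, adjusted p = 0.0329) is weak: the adjusted p was between 0.0775 and 0.121 when DMSO replicate 1 or 2 or any 1 carfilzomib replicate was left out. H-23 (0.05) and RKO (0.16) were not called, and in RKO the treated libraries lay above the others without passing the test. The test of a difference between lines was strongest for TFRC among the members (F = 113, adjusted p = 1.74e-23 by edgeR).

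SLC40A1 (ENSG00000138449, chr2:189560579-189583758, minus strand), the iron exporter, was scarce in every line. The highest DMSO level was 3.99, 4.62 and 3.85 CPM in CAPAN-2, where it fell to 3.15, 3.41 and 1.85 CPM (log2 -0.55, adjusted p = 0.0427 by edgeR, n = 3). That call was lost without DMSO replicate 1 or 2 or carfilzomib replicate 1 or 3 (adjusted p from 0.0526 to 0.171) and with DESeq2 (adjusted p = 0.0536). RPMI fell from 2.62, 2.73 and 2.04 CPM to 1.43, 1.31 and 1.25 CPM (log2 -0.88 ± 0.255, adjusted p = 0.0084). It was not called in DLD-1, H-23, H-1299, PANC-1 or H-929 and was not tested in RKO. The 3 RKO DMSO libraries had no count, which by a limit of 3 counts allows up to 0.237, 0.216 and 0.133 CPM of unscaled library total, counting error only.

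NCOA4 (ENSG00000266412, chr10:46005088-46030714, minus strand), the ferritin autophagy receptor, split the lines. It rose in H-1299 from 210, 215 and 208 CPM to 330, 335 and 345 CPM (log2 0.67 ± 0.0387 SE, adjusted p = 1.34e-08 by edgeR, n = 3), and by less in CAPAN-2 (0.40), H-23 (0.22) and PANC-1 (0.17). It fell in H-929 from 71.4, 92.1 and 78.6 CPM to 66.1, 55.5 and 50.01 CPM (log2 -0.50 ± 0.121, adjusted p = 0.00318). The fall in RPMI (-0.16, adjusted p = 0.0204) was lost without carfilzomib replicate 3 (-0.12, adjusted p = 0.0619), and the PANC-1 rise was lost in a fit of all libraries together (adjusted p = 0.0929). RKO and DLD-1 were not called. In H-929 the ferritin transcripts rose while that of their lysosomal receptor fell, and in CAPAN-2 all 3 rose.

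Averaged over the lines in 1 fit of all libraries, 6 of 9 tested members were called higher, where 19.8% of all genes were, and 1 lower, where 23.9% were. The mean log2 fold change was 1.96 ± 0.0586 (SE) for HMOX1, 1.31 ± 0.0264 for BLVRB and 1.23 ± 0.0283 for FTL. It was 0.49 ± 0.0382 for FTH1, 0.43 ± 0.0193 for BACH1 and -0.56 ± 0.0280 for TFRC. BLVRA (0.04, adjusted p = 0.222 by edgeR) and SLC40A1 (0.26, adjusted p = 0.447) were not called. NCOA4 passed barely (0.06, adjusted p = 0.0458), and its average was lost without replicate 1 or 2 (adjusted p = 0.249 and 0.150) and without H-23, PANC-1 or CAPAN-2 (adjusted p = 0.245, 0.210 and 1.00), turning to -0.02 without H-1299. The BLVRA average passed without H-929 (0.11) and without RPMI (0.15). By edgeR it also passed with DESeq2 size factors (0.06, adjusted p = 0.0461), library totals (0.08, adjusted p = 0.00854) and a mean of at least 50 counts (0.07, adjusted p = 0.0231). These errors hold for replicate cultures. When limma took the 8 lines as units instead, only BLVRB and FTL among the members passed (adjusted p = 0.01999 each), while HMOX1 (0.0651), BACH1 (0.0843), FTH1 (0.114) and TFRC (0.223) did not. Of all 11622 genes tested in this way, 102 passed. The response differed between lines for all 9 tested members, as it did for 67.7% of all genes. For SLC40A1 (F = 2.76, adjusted p = 0.0294 by edgeR) that call was lost without replicate 2 or 3, without CAPAN-2 or without RPMI (adjusted p = 0.181, 0.278, 0.0570 and 0.234). Scaling all libraries together lowered the log2 fold changes of H-929 by 0.16 relative to the fit of that line alone and moved the other lines by less than 0.1.

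Under DMSO, with all libraries scaled together, the lines differed widely in their starting levels. HMOX1 was highest in PANC-1 (101 ± 4.34 CPM, SD, n = 3) and RPMI (95.4 ± 40.7), which overlapped, followed by H-23 (45.2), RKO (26.3), H-929 (19.2) and H-1299 (17.8), of which the last pair overlapped, then DLD-1 (10.7) and CAPAN-2 (3.39). FTL ran from 4185 ± 140 CPM in RPMI and 2307 ± 144 in H-929 down to 421 ± 27.7 in H-1299, with RKO and PANC-1 overlapping at 896 and 893. The myeloma lines thus held the most light chain transcript under DMSO. FTH1 did not follow FTL: DLD-1 (283 ± 38.98) and RPMI (261 ± 20.4) overlapped at the top, and H-1299 (31.4 ± 4.24) was lowest. TFRC was highest in RPMI (1190 ± 78.4) and CAPAN-2 (1155 ± 32.1), which overlapped, and lowest in RKO (95.3 ± 1.48). After carfilzomib, HMOX1 ranged from the RPMI level of 2235 ± 291 CPM to a level 183-fold lower, compared with a 29.9-fold range under DMSO.

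Over the 8 lines the log2 fold changes of HMOX1 and FTH1 had a Pearson r of 0.94 and a Spearman rho of 0.83. Without CAPAN-2 and RPMI, the lines farthest from the HMOX1 median, r was 0.75. HMOX1 and FTL had an r of 0.48, which became 0.05 without those lines. For HMOX1 and BACH1 r was 0.74 and rho 0.86, and r was 0.98 without those lines. For HMOX1 the r was 0.67 with BLVRB (0.28 without those lines) and -0.79 with TFRC (-0.55). FTH1 and TFRC had an r of -0.88 (-0.73 without the same lines), FTL and TFRC one of -0.38, and BLVRB and FTL one of 0.86 (0.48 without RKO and CAPAN-2). These are descriptions of 8 points, and the members of a point share libraries and scaling. By the same measure over 11614 genes tested in all lines, the responses most like that of HMOX1 were MLLT11 (r = 0.97), TMEM62 (0.97), CEP290 (0.97), FBXO36 (0.96) and MTO1 (0.95). For FTL they were FTLP3 (0.95), a pseudogene of FTL whose reads may be those of FTL, PSMD13 (0.94) and PSMC5 (0.94), which encode subunits of the proteasome's regulatory particle, RAB5IF (0.93) and ZNRD2 (0.93).

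**Figure D5:**
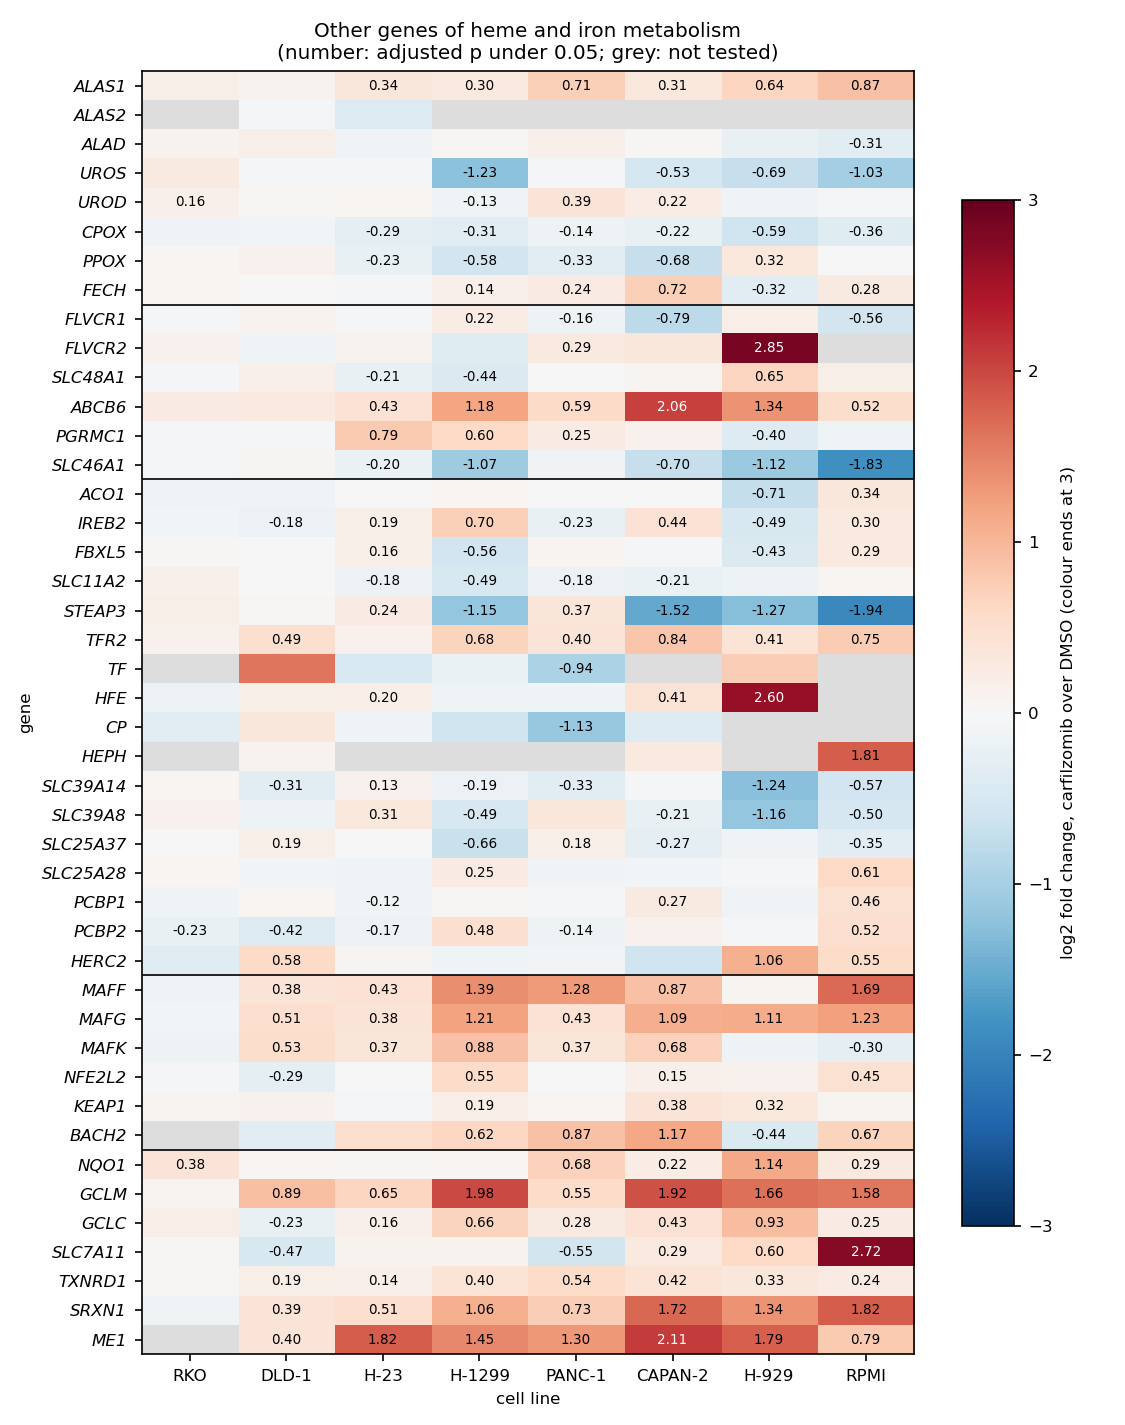
Log2 fold change of 44 other genes of heme and iron metabolism (rows, with lines between the lists of heme synthesis, heme transport, iron handling, BACH1 partners and NRF2 regulators, and BACH1 and NRF2 targets) in each cell line (columns), carfilzomib over DMSO. Numbers mark adjusted p under 0.05 and grey marks genes not tested. GCLM and SRXN1 are called higher in 7 lines each, and STEAP3 is lower in 4.

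Of 7 genes that BACH1 and NRF2 share as targets, all 7 were called higher in CAPAN-2, H-929 and RPMI. PANC-1 had 6 higher and 1 lower, H-23 and H-1299 had 5 higher and none lower, DLD-1 had 4 higher and 2 lower, and RKO had 1 of 6 tested higher. The shares of all genes called higher in these lines, given above, ran from 3.62% in RKO to 31.3% in RPMI. On the average over lines, 6 of 7 were called higher and 0 lower, where 19.8% and 23.9% of all genes were. The gene not called was ME1, whose average over all lines has no usable error. The median log2 fold change of the list was 0.31, against 0.02 for all genes. GCLM, the modifier subunit of glutamate-cysteine ligase, averaged 1.12 ± 0.0359 (SE) and rose in 7 lines, among them DLD-1, where it went from 37.9, 44.03 and 41.3 CPM to 87.0, 62.9 and 78.8 CPM. SRXN1, which repairs oxidised peroxiredoxins, averaged 0.89 ± 0.0246 and rose in 7 lines, and so did TXNRD1, thioredoxin reductase, the lowest average of the list at 0.25 ± 0.0206. ME1, malic enzyme, rose in all 7 lines in which it was tested, and its average was 1.33 ± 0.0277 without RKO. SLC7A11, the cystine transporter, rose in 3 lines and fell in 2, and GCLC, the catalytic partner of GCLM, rose in 6 and fell in 1. RKO was the line without a call for GCLM, SRXN1 and TXNRD1. GCLM passed also with lines as units in limma (adjusted p = 0.0460).

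Of the BACH1 partners and NRF2 regulators, 5 of 6 were called higher on average and 0 lower, where 19.8% and 23.9% of all genes were. The gene not called was BACH2, whose average has no usable error. MAFG and MAFF, small MAF proteins that pair with BACH1 or NRF2, averaged 0.69 ± 0.0241 and 0.71 ± 0.0376. MAFG rose in 7 lines and MAFF in 6. In RPMI, MAFG went from 67.6, 78.4 and 69.4 CPM to 182, 169 and 155 CPM. NFE2L2, which encodes NRF2, averaged only 0.07 ± 0.0214, rose in 3 lines and fell in 1.

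Of 8 heme synthesis genes, 2 were called higher and 3 lower on average, where 19.8% and 23.9% of all genes were. ALAS1, the rate-limiting enzyme of the pathway outside red cells, averaged 0.39 ± 0.0217 and rose in 6 lines. In RPMI it went from 51.9, 55.4 and 64.8 CPM to 104, 109 and 103 CPM. UROS, which closes the porphyrin ring, averaged -0.46 ± 0.0243 and fell in 4 lines. CPOX fell in 6 lines and averaged -0.30. BACH2 and HERC2, in the other lists, share an identifier with further rows and are uncertain.

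Among 6 heme transport genes, 2 were called higher and 2 lower on average, where 19.8% and 23.9% of all genes were. ABCB6, a porphyrin transporter, averaged 0.79 ± 0.0367 and rose in 6 lines, most in CAPAN-2, from 16.6, 16.7 and 16.5 CPM to 72.3, 69.1 and 66.1 CPM. SLC46A1, a folate transporter that can also carry heme, averaged -0.66 ± 0.0544 and fell in 5 lines, most in RPMI, from 12.97, 10.2 and 11.9 CPM to 3.86, 3.75 and 2.27 CPM. The pair thus moved apart in the myeloma lines, the lung lines and CAPAN-2.

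In the iron handling list 2 of 17 tested genes were called higher on average and 8 lower, where 19.8% and 23.9% of all genes were, and HAMP and FTMT were not tested. The median log2 fold change was -0.03, against 0.02 for all genes. The lines differed: RPMI had 9 of 14 higher and 4 lower (31.3% and 32.2% of all genes), with a median of 0.32. H-23 had 6 of 16 higher and 3 lower (17.7% and 16.2%), and H-929 had 3 of 15 higher and 6 lower (26.4% and 26.2%). STEAP3, the endosomal reductase that frees iron taken up with TFRC, averaged -0.67 ± 0.0322. It fell with TFRC in RPMI, from 20.2, 17.7 and 16.6 CPM to 5.84, 4.13 and 4.23 CPM, and in CAPAN-2 and H-929, but it also fell in H-1299, where TFRC rose, and it rose in PANC-1, where TFRC fell. HEPH had the highest average but was tested in 3 lines, with a call in RPMI alone, and its average has no usable error. The erythroid markers, which could accompany heme genes, summed to 14.7 to 18.7 CPM in H-929 under DMSO and 52.6 to 67.6 CPM under the drug, mostly EPOR (15.98 and 55.5 CPM). In RPMI their sum went from 7.69 to 9.13 CPM to 18.3 to 21.8 CPM, mostly EPOR (7.24 and 19.4 CPM), with HBB at 0. Erythroid markers were not alone in rising. In H-929 the epithelial markers went from 44.7 to 58.9 CPM to 86.9 to 93.9 CPM. Fibroblast, pancreatic duct, lung and macrophage markers also rose there, colon markers overlapped and plasma cell markers fell. In RPMI fibroblast markers rose, pancreatic duct, macrophage and plasma cell markers fell, and the others overlapped. The part of all these markers in the results was not tested. The number called higher on average became 1 for heme synthesis without CAPAN-2, 1 for heme transport without H-23 and 1 for iron handling without replicate 3, where it was 2 in each. The average counts of the 5 lists rest on the spread between replicates. With lines as the units, 1 gene of all 5 lists, GCLM, passed in limma, where 102 of 11622 genes did.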

How the data were processed

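RNA-seq of 48 libraries was deposited by the authors as 1 matrix of raw read counts per gene, not normalized. Per the labels' protocols, the libraries were stranded total RNA libraries. The submitters' processing notes name bcl2fastq 2.19, FastQC, Trimmomatic, HISAT2, DESeq2 and hg38 without their roles. The counting program, the annotation and the use of strand are not given in the sources used here. Every row names a gene. Depth was 9.12 to 64.4 M counts per library, and with no molecular identifiers known, reads may repeat molecules.

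Each cell line was fitted on its own 6 libraries with edgeR 4.0.16 in R 4.3.3 (TMM factors, filterByExpr, quasi-likelihood F test), and p-values were adjusted by Benjamini-Hochberg over all genes tested, called under 0.05. A joint fit of 16 groups gave the average over lines and the test that lines differ. Positions, exon lengths and UTR sites came from GENCODE 29 (hg38), and promoters from RefSeq. The members and gene lists were chosen with earlier results of these data known. The text names the members, the highest and lowest gene of each list by average and those called alike in at least 7 lines, and the 5 genes most like HMOX1 and FTL. CPOX, SLC7A11, GCLC, BACH2 and HERC2 were named after their values were seen. A few genes of the lists are not reported here. The fits were tested on simulated counts. Alternatives were other scaling and filters, DESeq2 1.42.0, limma 3.58.1 on lines as units, a replicate block, a null fold change of 1.5, and leaving out a library, a replicate number or a line at a time.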

Additional observations from a re-analysis of the deposited data

Results flagged for a closer look

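The response to carfilzomib differed between the 8 lines for each tested member, by the F test of edgeR's joint fit with Benjamini-Hochberg adjustment, as it did for 67.7% of all genes. The doses differed between the lines as well, so dose and line cannot be told apart. TFRC had the highest F, 113, with log2 fold changes from -1.91 in RPMI to 0.47 in H-1299. HMOX1 followed with F = 92.7 and log2 fold changes between 0.20 (DLD-1) and 4.62 (RPMI). The F was 54.2 for FTL, 49.0 for BLVRB, 39.6 for BLVRA, 33.3 for BACH1, 30.5 for NCOA4 and 22.5 for FTH1. SLC40A1 had F = 2.76.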

How the results depend on the processing

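Of 71 values of a member in a line, 51 were called, and 47 of these kept their direction and call under every alternative other than the null fold change of 1.5. Of the 20 not called, 12 stayed so with the same direction. The number of members called in RKO was 2, but 4 with library totals and 0 against a null fold change of 1.5. Against that null the number was 2 in DLD-1, 3 in H-23, 4 in H-1299, 3 in PANC-1 and 5 in CAPAN-2. NCOA4 lost its call against it in H-929, and BLVRA, SLC40A1 and NCOA4 lost theirs in RPMI. The share of all genes called against that null is not given here, so these numbers have no background. The number of members called on the average over lines was 2 with lines as units, where 102 of 11622 genes passed. Values that changed sign were all small or uncalled. With library totals NCOA4 in DLD-1 was 0.023 and BLVRA in H-1299 -0.10, and the latter was -0.058 with all libraries in 1 fit. The average of SLC40A1 was -0.057 without RKO, that of BLVRA -0.026 without DLD-1 and -0.040 without CAPAN-2, and that of NCOA4 -0.021 without H-1299. Leaving out 1 library or replicate number at a time gave uncalled values of both signs, from -0.048 to 0.047 for NCOA4 in RKO, -0.037 to 0.00011 for NCOA4 in DLD-1, -0.093 to 0.040 for FTH1 in H-23, -0.041 to 0.062 for BLVRA in H-1299, -0.032 to 0.42 for SLC40A1 in PANC-1 and -0.015 to 0.35 for the average of SLC40A1. The cause was not tested. Same-numbered replicates did not deviate together (correlations between -0.06 and 0.05), so the numbers are not taken as pairs. With the replicate number as a block, TFRC in DLD-1 (-0.16, adjusted p = 0.0520 by edgeR), the average of NCOA4 (0.06, adjusted p = 0.0629) and the difference between lines of SLC40A1 (F = 2.38, adjusted p = 0.0765) missed the threshold, FTL in RKO passed it (0.20, adjusted p = 0.00633), and no other call of a member changed. Summing rows that share an identifier, an alternative chosen after seeing the data, changed no call of a member. Depth limits SLC40A1, with at most 202 counts in a library.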
